A study of Mus musculus with 2 samples.

Results

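Collagens are the structural proteins of the extracellular matrix, and each is a trimer of chains that are encoded by separate genes. The chains described here are the protein-coding genes of the mouse whose symbol is Col, a type number, the letter a and a chain number. By that rule 44 of the 43346 mouse genes in the deposited tables are collagen chains, and all 44 are listed in both libraries. They were grouped by collagen type into 9 fibrillar chains (types 1, 2, 3, 5 and 11), 8 chains found in or beside basement membranes (types 4, 15 and 18), 6 chains of type 6 and 21 chains of other types.

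The study sequenced RNA from the thymus of newborn mice, the organ in which T cells mature. There is 1 group of 2 libraries: strain B6NCrl, postnatal day 0, with sex not collected and no treatment or engineered allele named. Pups 6 and 7 of a C57/Bl6 female from Charles River gave replicates 1 and 2, and both carry 1 donor ID in the labels, so pup, RNA handling and library cannot be told apart. RNA was extracted from whole tissue with the mirVana kit, kept above 200 nt, and 13 pg of total RNA, given as 1 cell-equivalent, went into each library with spike-ins. The labels call the assay single cell RNA-seq, although the starting material was tissue RNA. With 1 group there is no comparison between conditions and no test, and every difference below describes these 2 libraries only.

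In the helical part of a collagen chain the residues come in triplets that each begin with glycine, the only residue small enough for the centre of the triple helix. Fibrillar collagens assemble into the banded fibres of connective tissue. Type 4 collagen forms the sheet of the basement membrane, and type 6 forms beaded filaments near cells. In the thymus, collagens are known from the capsule, the septa and the walls of blood vessels, and are made mainly by mesenchymal cells, with type 4 also made by endothelium and epithelium. In tissue RNA, fewer cells of a type and less RNA per cell cannot be told apart.

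The helical repeat can be read in the genes themselves. The 8 chains that held 100 or more expected counts in both libraries are shown by 1 exon each, the first inner coding exon of 54 bases that is in frame and begins each triplet of codons with a glycine codon (GGN). Sequences are those of GENCODE M21 transcripts on GRCm38 (mm10), written 5′ to 3′ on the strand of the gene, with the glycine codons in capitals. The exons are exon 8 of Col1a1 (chr11:94939904-94939957, plus strand), exon 8 of Col1a2 (chr6:4515481-4515534, plus), exon 6 of Col3a1 (chr1:45325360-45325413, plus), exon 6 of Col5a2 (chr1:45434892-45434945, minus), exon 7 of Col4a1 (chr8:11245211-11245264, minus), exon 17 of Col4a2 (chr8:11413979-11414032, plus), exon 6 of Col6a2 (chr10:76611948-76612001, minus) and exon 34 of Col16a1 (chr4:130067219-130067272, plus). All are coding.
Col1a1: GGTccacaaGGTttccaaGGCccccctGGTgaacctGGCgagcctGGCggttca
Col1a2: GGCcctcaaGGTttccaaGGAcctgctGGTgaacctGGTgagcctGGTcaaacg
Col3a1: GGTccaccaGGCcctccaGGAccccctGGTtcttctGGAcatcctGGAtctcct
Col5a2: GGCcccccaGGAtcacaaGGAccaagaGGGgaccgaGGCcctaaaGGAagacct
Col4a1: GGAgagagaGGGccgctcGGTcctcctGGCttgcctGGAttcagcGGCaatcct
Col4a2: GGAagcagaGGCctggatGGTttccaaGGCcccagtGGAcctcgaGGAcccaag
Col6a2: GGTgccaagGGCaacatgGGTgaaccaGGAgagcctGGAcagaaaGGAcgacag
Col16a1: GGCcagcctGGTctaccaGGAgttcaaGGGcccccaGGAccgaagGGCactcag

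Across the 28 pairs of these exons, between 19 and 42 of the 54 bases were identical, with a median of 26. The exons of Col1a1 and Col1a2, the chains of type 1 collagen, shared 42 of 54 bases, and 30 of the 42 bases outside the first letters (GG) of the glycine codons. Col1a1 and Col3a1 shared 35 of 54 bases. The choice of exons fixed the glycine codons, so identity at those letters is not a finding.

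By class, the 54-base exon was most common in fibrillar chains. Of 510 inner coding exons in the 9 fibrillar chains, taken from the transcript with the longest coding sequence of each gene, 239 (46.9%) were 54 bases long. The share was 4.43% (16 of 361) in the basement membrane class, 8.25% (17 of 206) in type 6 and 23.5% (197 of 840) in the other chains, against 0.737% (1161 of 157560) over all protein-coding genes. It was not particular to the fibrillar class. Among the other chains, Col24a1 (33 of 58 exons) and Col27a1 (33 of 59) had larger shares than any fibrillar chain, the highest of which was Col3a1 (24 of 49). Exon lengths divisible by 9, which keep the glycine repeat whole, made up 82.7% of fibrillar, 45.2% of basement membrane, 54.4% of type 6 and 62.7% of other exons, and 14.3% over all protein-coding genes.

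**Figure D1:**
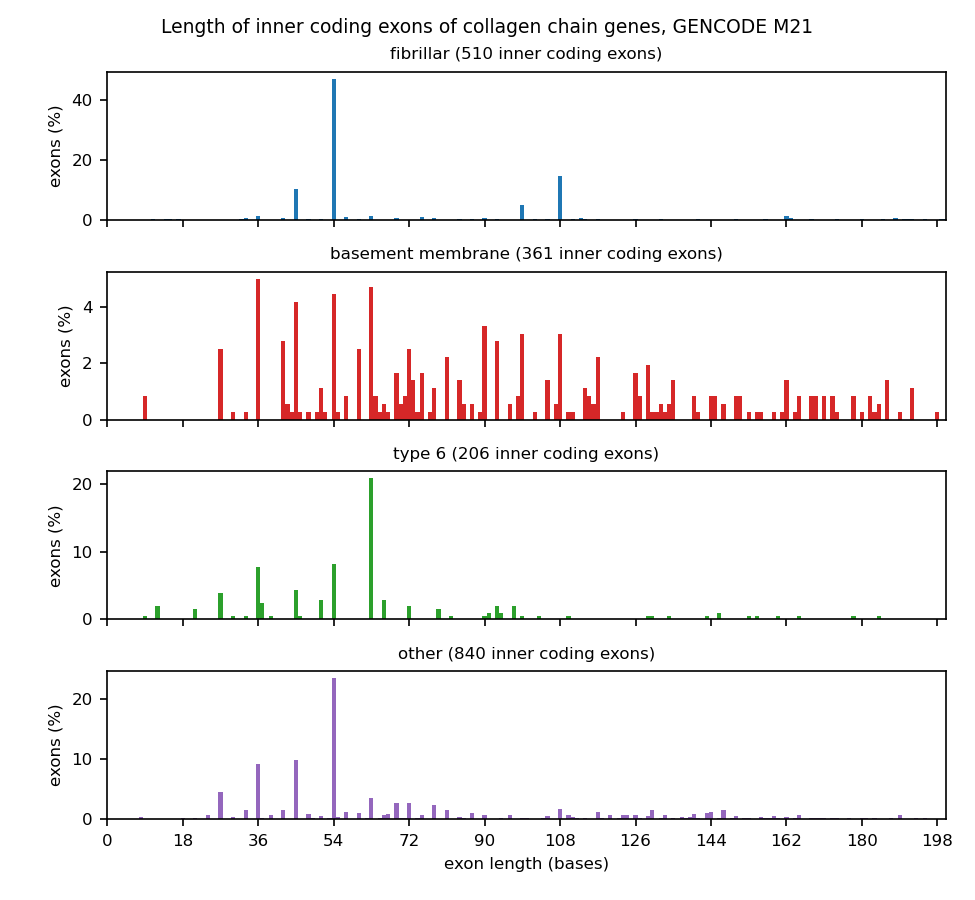
Inner coding exons of collagen chain genes by length in bases (x axis, shown to 200 bases), as the percent of exons of each class (y axis, scaled to each panel). The fibrillar panel has its highest bar at 54 bases, with 239 of 510 exons.

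The length of the unbroken repeat set the fibrillar chains apart from the other classes, which overlapped. In each of the 9 fibrillar chains the longest unbroken run of triplets that begin with glycine was 337 to 344 triplets, 338 in Col1a1, 339 in Col1a2 and 344 in Col3a1. In the 6 type 4 chains the longest run was 39 to 66 triplets, and the repeat was split into 22 to 27 runs of at least 5 triplets. Type 4 helices are known for such interruptions. The longest run was 30 triplets in Col15a1 and in Col18a1. In type 6 it was 37 to 87 triplets, with 87 in Col6a1 and in Col6a2 and 45 in Col6a3. The 21 other chains ranged from 23 to 217 triplets, with the longest in Col24a1 (216) and Col27a1 (217).

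The libraries held 25999043 and 31902773 mouse counts in replicates 1 and 2. These are expected counts, the authors' estimates of reads per gene, which need not be whole. The floor, the upper limit of 3 counts that a count of 0 allows at 95%, was 0.115 and 0.0940 counts per 1000000 mouse counts. Markers of the labelled tissue were present: all 6 T-lineage genes were read in both libraries, at a summed 3776 and 3329 TPM, and so were 8 of 9 thymic epithelial genes, at 2988 and 3018 TPM. The ninth, Foxn1, the defining factor of thymic epithelium, had 0 and 1129 counts. Read means 1 or more counts, and Krt14, among the 8, had 2 and 1476 counts, under the floor in replicate 1. Heart and skeletal muscle markers were also read, 6 of 7 in both libraries, at 1161 and 351 TPM, and the part of such tissue in the collagen values was not tested. Counting intervals and floors cover counting error only, since the reads carry no molecular identifiers in these tables.

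Collagen chains were a small share of the RNA. They held 50185 expected counts in replicate 1, or 0.193% of mouse counts (95% exact binomial interval 0.191% to 0.195%), and 64107 in replicate 2, or 0.201% (0.199% to 0.203%). Per length, in TPM (transcripts in each 1000000, here scaled to mouse genes), the 44 chains summed to 654.8 and 722.4, a mean of 689 ± 47.8 (SD, n = 2). The 2 libraries thus lay close in total.

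The chains behind the total were then counted. A chain was called read at 1 or more expected counts. By that measure 18 chains were read in replicate 1 and 23 in replicate 2. Of the 44 chains, 16 were read in both libraries, 36.4%, beside a background of 32.1% over the 21474 protein-coding genes. Another 9 chains (2 in replicate 1 and 7 in replicate 2) were read in 1 library alone, 20.5%, beside 19.3% of protein-coding genes. That background was not split by library and replicate 2 was the deeper one, so nothing is read from the split of the chains. The remaining 19 were read in neither, 43.2%, beside 48.6%. At 1 or more counts these shares lay near those of protein-coding genes as a whole, although collagen transcripts are long. The median length of the longest coding transcript was 5626.5 bases for the 44 chains and 2560 bases over 21428 protein-coding genes.

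Fibrillar chains made up most of the collagen RNA. They summed to 480 and 544 TPM (512 ± 45.8, SD, n = 2), or 73.2% and 75.3% of collagen TPM. The basement membrane class summed to 95.2 and 36.6 TPM (65.9 ± 41.4), or 14.5% and 5.06%. Type 6 summed to 13.3 and 109 TPM (61.2 ± 67.7), or 2.03% and 15.1%, and the other chains to 66.8 and 32.4 TPM (49.6 ± 24.3), or 10.2% and 4.49%. Only the fibrillar sum had a spread that was small beside its mean. The order of the remaining classes differed between the libraries: basement membrane, other, type 6 in replicate 1, and type 6, basement membrane, other in replicate 2.

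**Figure D2:**
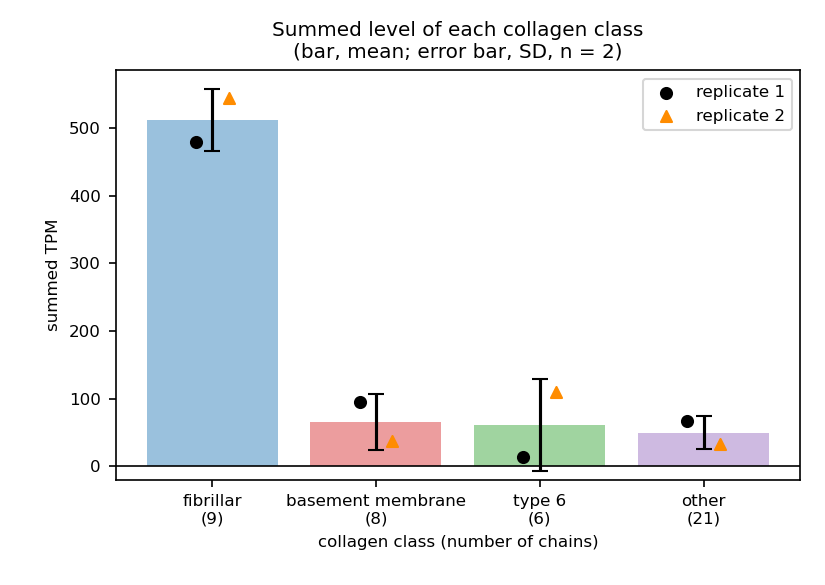
Summed level in TPM of the 4 collagen classes (number of chains in parentheses), with a circle for replicate 1, a triangle for replicate 2, bars for the mean and error bars for the SD of 2. Fibrillar chains stood at 480 and 544 TPM, and type 6 moved from 13.3 to 109 TPM.

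By the mean of the 2 libraries, the most abundant chains were those of types 3 and 1. Col3a1, the single chain of type 3 collagen, which is typical of reticular fibres in lymphoid organs, had 13488 and 24609 expected counts, or 235 and 370 TPM (302 ± 95.9), and ranked 495th by mean TPM among protein-coding genes. Col1a2, the α2 chain of type 1 collagen, had 5505 and 11473 counts, or 51.7 and 96.4 TPM (74.1 ± 31.6). Col1a1, the α1 chain, had 6525 and 9424 counts, or 54.9 and 69.99 TPM (62.4 ± 10.7). All 3 were higher in replicate 2, by 1.49-fold, 1.70-fold and 1.18-fold in counts per mouse count for Col3a1, Col1a2 and Col1a1. In TPM the Col1a1 and Col1a2 levels overlapped, and Col3a1 lay above both in each library. Within single libraries other chains came between them: Col4a2, at 53.2 TPM, lay above Col1a2 in replicate 1, and Col6a1, at 94.3 TPM, lay above Col1a1 in replicate 2. Together these 3 chains held 52.1% of collagen TPM in replicate 1 and 74.3% in replicate 2.

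Chains of types 5 and 11, which are built into type 1 fibrils and limit their width, were read mainly in replicate 1. Col5a2 had 3382 and 1130 counts, or 25.4 and 7.498 TPM (16.4 ± 12.7), and was the only one of these chains at 100 or more counts in both libraries. Col5a1 had 1975.96 and 25 counts, or 49.1 and 0.128 TPM, a 96.99-fold difference in counts per mouse count (exact counting interval 65.5 to 150). Col5a3 had 2387 and 2 counts, a 1465-fold difference (405 to 12100). Replicate 2 was low for all 3 type 5 chains, in contrast to types 1 and 3. Col11a2 had 1668 and 0 counts and was at least 682-fold higher in replicate 1 against the floor of 3 counts per library. Its partner Col11a1 and the cartilage chain Col2a1 had 0 counts in both libraries, as had 8 of the 9 cartilage markers, among them Acan and Matn1. The ninth, Sox9, a transcription factor of cartilage and other tissues, had 545 and 0 counts, so it was read in the same library as Col11a2, and its part in that value was not tested.

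**Figure D3:**
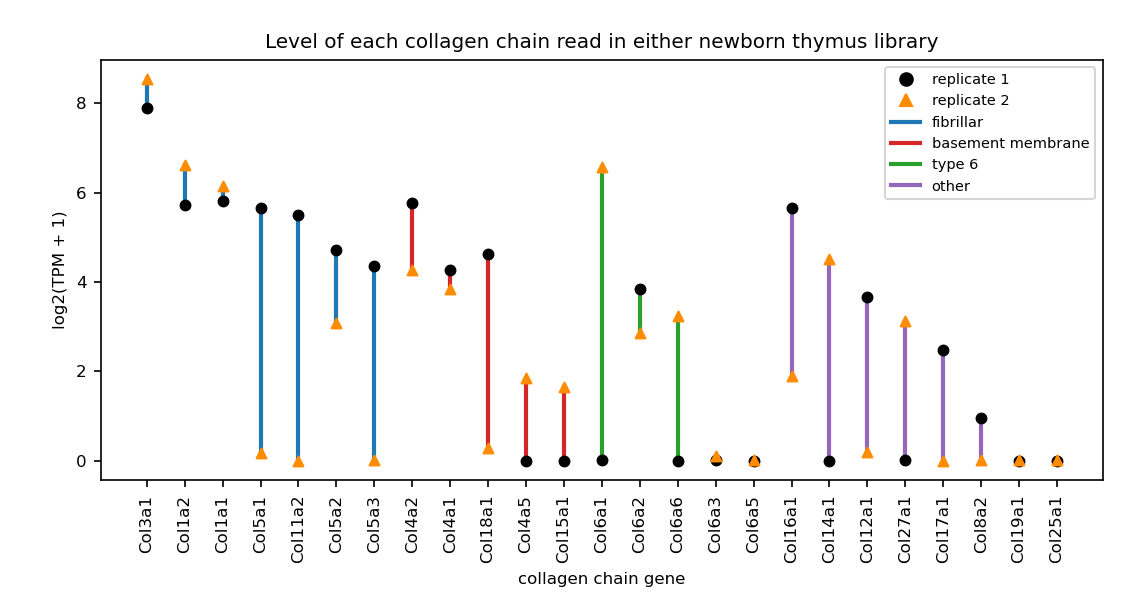
Level of each of the 25 chains read in either library, as log2(TPM + 1), with circles for replicate 1, triangles for replicate 2, and a line in the colour of the class joining them. The lines of Col3a1, Col1a2, Col1a1 and Col4a1 are short, and those of Col5a1, Col11a2 and Col6a1 reach down to about 0.

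In the basement membrane class the most abundant chains were Col4a1 and Col4a2, the α1 and α2 chains of the type 4 trimer found in most basement membranes. Col4a2 had 6909 and 2661 counts, or 53.2 and 18.1 TPM (35.7 ± 24.8), and Col4a1 had 2447 and 2024 counts, or 18.4 and 13.4 TPM (15.9 ± 3.49). Both were higher in replicate 1, and Col4a2 was above Col4a1 in each library. Their genes lie head to head on chromosome 8 and overlap by 22 bases in GENCODE M21, and whether the authors' counting used strand is not stated. The chains of the other type 4 trimers were scarcely read. Col4a5 had 0 and 207 counts (at least 56.2-fold higher in replicate 2), and Col4a3, Col4a4 and Col4a6 had 0 in both libraries. Col4a3 and Col4a4, known from the kidney filter, also lie head to head, 71 bases apart, and both were at 0.

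The proteoglycan-like collagens of basement membranes went in opposite directions. Col18a1, the precursor of endostatin, had 2387 and 25 counts, or 23.5 and 0.214 TPM, 117-fold higher in replicate 1 (79.2 to 181). Col15a1, its closest relative, had 0 and 113 counts, at least 30.7-fold higher in replicate 2. No library thus held 100 or more counts of both. Endothelial markers, which mark a source of basement membrane chains, summed to 388 and 165 TPM. Both libraries held 5 of the 9, among them Flt1 with 2066 and 1 counts, and Kdr, Tek and Emcn were at 0 in both. Pericyte and smooth muscle markers summed to 99.2 and 229 TPM, with 6 of 8 read in both, among them Notch3 with 2 and 2623 counts. The part of either cell type in these values was not tested.

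Partner chains of type 6 collagen had unlike values. The common type 6 trimer holds 1 chain each from Col6a1, Col6a2 and Col6a3. Col6a1 had 2 and 8695 counts, or 0.0214 and 94.3 TPM, a 3543-fold difference (981 to 29260). Col6a2 had 1044 and 557 counts, or 13.3 and 6.27 TPM (9.77 ± 4.95), higher in replicate 1. Col6a3 had 3 and 13 counts, 3.53-fold per mouse count with an interval of 0.970 to 19.3 that includes no difference. In replicate 2 the TPM of Col6a1 was thus 15.05 times that of Col6a2, and that of Col6a3 was 0.000793 of that of Col6a1. Col6a1 and Col6a2 are neighbours on chromosome 10, in the same direction with 85161 bases between them. Among the alternative chains that can take the place of Col6a3, Col6a6 had 0 and 838.93 counts (at least 228-fold higher in replicate 2), Col6a5 had 0 and 1.07, and Col6a4 had 0 in both. The authors' estimate apportioned any reads that fit several of these similar genes, so the split among Col6a4, Col6a5 and Col6a6 is uncertain.

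Of the 21 chains of other types, 6 reached 10 counts in either library, and 1 of them reached 100 in both. This was Col16a1, a chain associated with fibrils, with 1007 and 211 counts, or 49.7 and 2.70 TPM, 5.86-fold higher in replicate 1 in counts per mouse count (5.04 to 6.83). Col12a1, which lies on the surface of type 1 fibrils, had 874 and 11 counts (97.5-fold, 54.2 to 196). Col14a1, a related surface chain, had the opposite order with 0 and 1220 counts, at least 331-fold higher in replicate 2. Col27a1, a fibril-forming chain of cartilage that the grouping places here, had 1 and 862 counts (702-fold, 126 to 27778). Col17a1, a transmembrane chain that anchors epithelial cells to the basement membrane, had 499 and 0 counts, at least 204-fold higher in replicate 1. Of 6 epidermal markers, Krt10 and Krtdap were read in both libraries and Krt1, Krt15, Lor and Ivl in neither (summed level 55.1 and 67.1 TPM). Col8a2, a chain of short-chain type 8 collagen, had 81 and 2 counts (49.7-fold, 13.3 to 417).

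The remaining other chains were not detectable at this depth or nearly so. Col19a1 had 0 and 2 counts and Col25a1 had 0 and 1, both at or under the floor. Col7a1, the anchoring fibril chain of skin, Col10a1, the chain of growing cartilage, and Col9a1, Col9a2 and Col9a3, which decorate cartilage fibrils, had 0 in both libraries. Col8a1, Col13a1, Col20a1, Col22a1, Col23a1, Col24a1, Col26a1 and Col28a1 were also at 0 in both. Col10a1 shares exon bases on the opposite strand with Nt5dc1, which had 814 and 2379 counts, and no count was given to Col10a1.

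Chains were then set beside all mouse genes whose counts averaged at least 100, a level that 19 chains reached. The log2 ratio is replicate 2 over replicate 1, from TPM with 1 added. By that ratio, 11 of the 19 chains (57.9%) differed at least 4-fold, beside 50.9% of 9341 genes. Replicate 1 was higher for 7 of them (36.8%, background 21.5%) and replicate 2 for 4 (21.1%, background 29.4%). The median log2 ratio of the 19 chains was -0.97, with 11 chains higher in replicate 1 and 8 in replicate 2. That of the 9341 genes was 0.17, with 4388 higher in replicate 1 and 4953 in replicate 2. Both medians stayed at these values when genes with 0 counts in 1 library were set to their bound. The bound keeps the direction of each gene, and the chains it changed already lay on either side of the chain median. That median could therefore not move, and its staying is no check on the ratio. The share of chains that differed was thus near the background. The split by direction was the reverse of that over all genes, but it rests on 7 and 4 chains. Nothing particular to collagen chains is read from it.

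Chains nearly unread in 1 library were set beside the same genes. Of the 19 chains, 8 (42.1%) had 3 or fewer counts in 1 library, beside 35.1% of all 9341 genes: Col6a1, Col14a1, Col27a1, Col6a6 and Col4a5 were low in replicate 1, and Col5a3, Col11a2 and Col17a1 in replicate 2. Over all genes the share fell with depth. Between 100 and 1000 mean counts, 6 of 9 chains (66.7%) were nearly unread in 1 library, beside 64.5% of genes. Between 1000 and 3000 mean counts it was 1 of 5 chains, Col5a3, beside 29.5% of genes. At a mean of 3000 or more counts it was 1 of 5 chains, Col6a1, beside 3.46% of genes (88 of 2544). Col6a1 was singled out after its values were seen. In the same 3 ranges, 7 of 9, 3 of 5 and 1 of 5 chains differed at least 4-fold, beside 77.5%, 50.7% and 15.7% of genes. By length, 8 of the 18 chains whose longest coding transcript has 4000 bases or more (44.4%) were nearly unread in 1 library, beside 36% of such protein-coding genes.

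The 8 chains with at least 100 counts in both libraries differed by 1.18-fold to 5.86-fold in counts per mouse count. The count required in both libraries itself keeps the largest differences out. By the log2 ratio, 7 were under 4-fold and 1, Col16a1 (12.5%), was above it, beside 16.5% of the 5281 mouse genes that met the same requirement. Replicate 2 was higher for Col1a1, Col1a2 and Col3a1, and replicate 1 for Col4a1, Col4a2, Col5a2, Col6a2 and Col16a1.

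**Figure D4:**
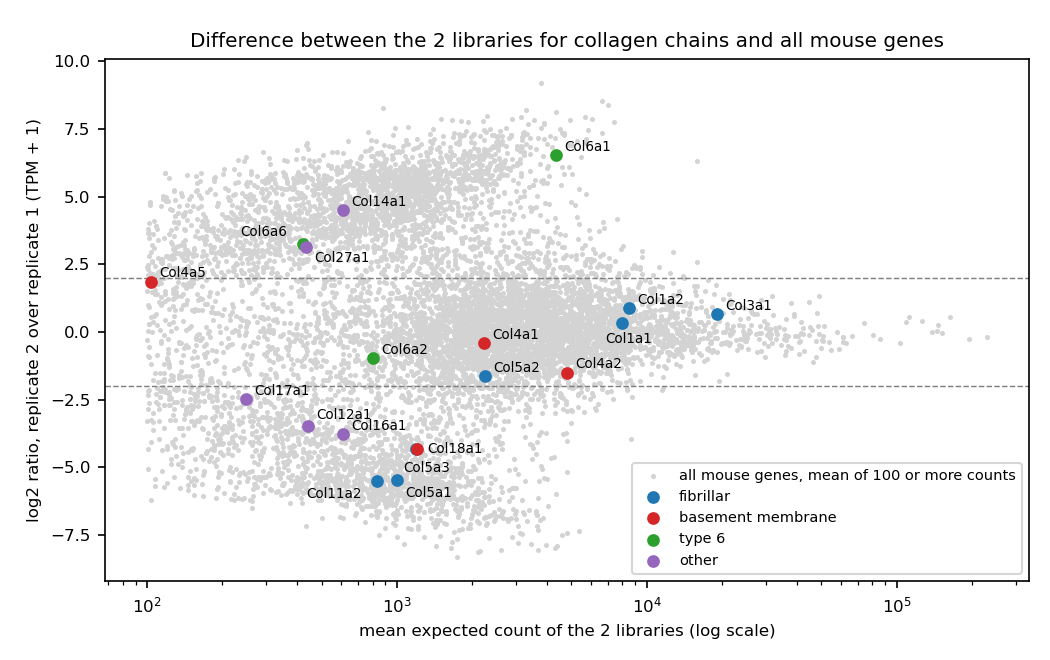
Log2 ratio of replicate 2 over replicate 1 (TPM + 1, y axis) against the mean expected count (log x axis) for 9341 mouse genes in grey and 19 collagen chains in the colour of their class, with dashed lines at 4-fold. Col5a3 lies under Col18a1. The chains of types 1 and 3 sit near 0 at the right, and Col6a1 stands at 6.54 with a mean of over 3000 counts.

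Ratios between chains that share a trimer are given beside the proportions of the protein. RNA levels need not match those proportions, and whether they do was not tested. Type 1 collagen holds more α1 than α2 chains, and the TPM ratio of Col1a1 to Col1a2 was 1.06 in replicate 1 and 0.726 in replicate 2. The common type 4 trimer also holds more α1 than α2, and the ratio of Col4a1 to Col4a2 was 0.345 and 0.741. For type 5 the ratio of Col5a1 to Col5a2 was 1.93 and 0.0171. The value of 1.93 depended on a short transcript model of 1049 bases, which held 86.1% of Col5a1 TPM in replicate 1. The full coding transcripts Col5a1-201 and Col5a2-201 had 6.81 and 25.3 TPM in that library, so by these Col5a1 was the lower. The log2 ratio averaged -0.19 ± 0.39 (SD, n = 2) for type 1, -0.98 ± 0.78 for type 4 and -2.46 ± 4.82 for type 5. The spread was greater than the mean for types 1 and 5, and for type 4 the α1 chain was lower in both libraries.

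The level of a chain in TPM depended on which of its transcripts the authors' estimate used. Near-complete coding transcripts were taken as those with at least 70% of the longest coding sequence of the gene and a deposited length within 5% of that in M21. Over the 28 cases of a chain with 100 or more counts in a library, such transcripts held 97% or more of the chain's TPM in 16, none of it in 3 (Col4a5, Col15a1 and Col27a1 in replicate 2), and 7.51% to 46.4% in the remaining 9. In those 9 they held 11.2% to 88.1% of the chain's counts, a larger share than of TPM in each, because a short transcript turns the same count into more TPM.

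Col3a1 was the most abundant such chain. Its full coding transcript Col3a1-201 (5564 bases) held 87.6% and 88.1% of the Col3a1 counts but 45.1% and 46.4% of its TPM. A 737-base coding model, Col3a1-205, all of whose bases lie within the exons of Col3a1-201, held 12.4% and 11.9% of counts and 54.8% and 53.6% of TPM. The level of Col3a1-201 alone was 106 and 172 TPM, still above Col1a1 and Col1a2 in both libraries. Both libraries thus divided the Col3a1 reads alike.

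Other chains drew most of their TPM from short or noncoding models. In replicate 1, Col5a1-202 (1049 bases) held 86.1% of Col5a1 TPM, Col11a2-207 (a retained intron model of 836 bases) 78.9% of Col11a2 TPM, and Col16a1-207 (a processed transcript of 833 bases) 91.9% of Col16a1 TPM. In replicate 2, Col14a1-204 (2085 bases) held 89.9% of Col14a1 TPM, and Col27a1-203, a retained intron model, 99.8% of the Col27a1 counts. The main chains of types 1 and 4 showed the opposite. Col1a1-201 held 99.8% and 100% of Col1a1 TPM, Col1a2-201 99.2% and 97.98% of Col1a2 TPM, and Col4a1-201 and Col4a2-201 all of their gene's TPM in both libraries. Among the 8 chains with a mean TPM of 20 or more, the transcript of highest TPM was near-complete in 4, and the transcript of highest count was near-complete in 7.

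**Figure D5:**
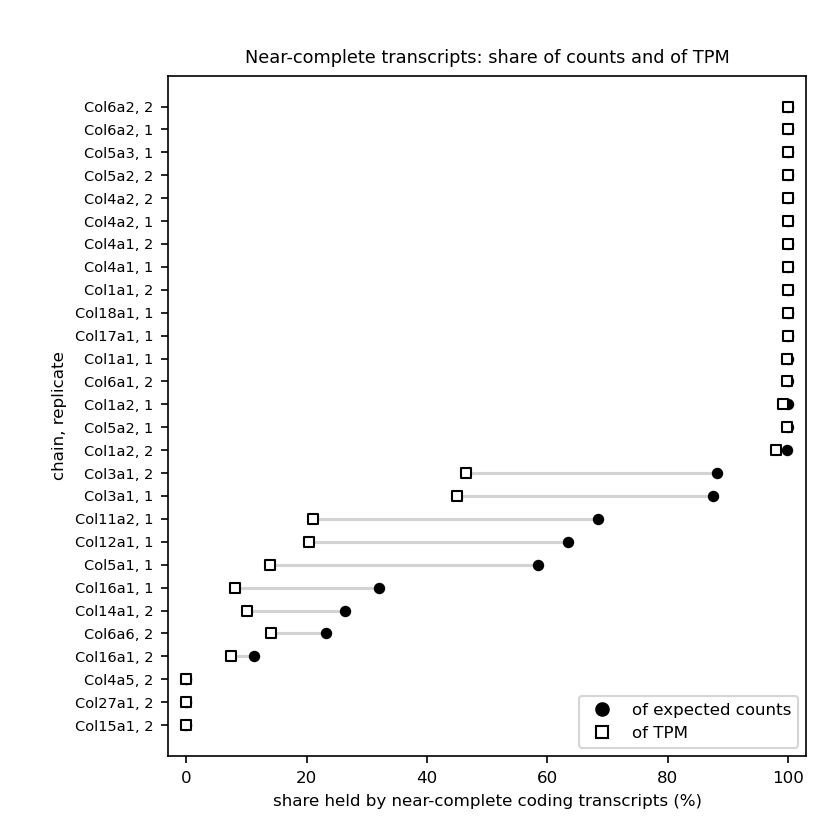
Share of each chain's expected counts (filled circles) and TPM (open squares) held by near-complete coding transcripts, in percent, for the 28 chain and library cases of 100 or more counts. Col1a1, Col1a2, Col4a1 and Col4a2 sit at the right edge, and Col3a1 falls from 87.6% and 88.1% of counts to 45.1% and 46.4% of TPM.

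Enzymes that modify and fold collagen chains in the endoplasmic reticulum were read in part. Of 18 such genes, 9 were read in both libraries, 5 in replicate 2 alone and 4 in neither, and their sum was 1147 and 742 TPM. Ppib, a prolyl isomerase, had 653 and 144 TPM, and P4hb, the β subunit of prolyl 4-hydroxylase, had 276 and 291 TPM. Plod3, a lysyl hydroxylase, had 61.6 and 42.5 TPM, and Serpinh1, the collagen chaperone HSP47, had 61.4 and 39.0 TPM. P4hb, the partner of every prolyl 4-hydroxylase α subunit, was thus nearly level. Its α subunits were not: P4ha2 had 0 and 2216 counts (at least 602-fold higher in replicate 2), P4ha3 had 53 and 2410, and P4ha1 had 0 and 57. Fkbp10, another collagen isomerase, had 0 and 2686 counts, at least 730-fold higher in replicate 2. Plod2, P3h2, Colgalt1 and Colgalt2 had 0 in both. Among the 10 members averaging at least 100 counts, 4 were at least 4-fold higher in replicate 2 and 1 in replicate 1, beside 29.4% and 21.5% of all mouse genes at that level.

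Genes for secretion, propeptide removal and cross-linking summed to 229 and 216 TPM. Of 18, 7 were read in both libraries, 2 in replicate 1 alone, 5 in replicate 2 alone and 4 in neither. Mia3, which loads procollagen for export, had 27.7 and 71.4 TPM, and its partner Mia2 had 57.7 and 10.3 TPM. Pcolce, an enhancer of procollagen C-proteinase, had 60.4 and 26.5 TPM. Its relative Pcolce2 had 2078 and 0 counts, at least 850-fold higher in replicate 1. The cross-linking enzyme Lox had 0 and 1 counts, and its relative Loxl3 had 0 and 2647, at least 719-fold higher in replicate 2. Tgm2, a transglutaminase, had 1698 and 0 counts, at least 695-fold higher in replicate 1. Among the 10 averaging at least 100 counts, 3 were at least 4-fold higher in each library (all genes, 21.5% in replicate 1 and 29.4% in replicate 2).

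Proteins that bind collagen fibrils were the most abundant of these lists, at 1334 and 1181 TPM. Of 14, 5 were read in both libraries, 6 in replicate 2 alone and 3 in neither. Sparc, which binds procollagen, had 959 and 573 TPM. Dcn, the proteoglycan decorin, had 8486 and 8454 counts, or 232 and 205 TPM (219 ± 19.5). Fn1, fibronectin, had 111 and 164 TPM, and Postn, periostin, had 32.0 and 135 TPM. Decorin and Sparc were thus well read in the library that held almost no Col6a1 and in the one that held almost no Col5a1. Thbs2 had 0 and 3975 counts, Bgn, biglycan, 0 and 1419, and Ogn 0 and 346, each higher in replicate 2 by at least 1080-fold, 385-fold and 94.0-fold. Among the 7 members averaging at least 100 counts, 4 were at least 4-fold higher in replicate 2 (all genes, 29.4%) and none in replicate 1 (21.5%).

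Partners of type 4 collagen in the basement membrane summed to 122 and 144 TPM. Of 15, 6 were read in both libraries, 5 in replicate 2 alone and 4 in neither. Agrn, agrin, had 56.3 and 28.2 TPM, and Hspg2, perlecan, had 2860 and 2610 counts. The nidogens, which link laminin to type 4 collagen, had opposite orders: Nid2 had 5244.53 and 2 counts, and Nid1 had 294 and 3258. The laminin chain Lama5 had 0 and 2617 counts, at least 711-fold higher in replicate 2. Lama3 had 0 and 1670 counts, at least 454-fold higher in replicate 2. Among the 8 members averaging at least 100 counts, 4 were at least 4-fold higher in replicate 2 (all genes, 29.4%) and 1 in replicate 1 (21.5%).

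Collagen receptors summed to 345 and 29.8 TPM. Of 10, 2 were read in both libraries, 1 in replicate 1 alone, 2 in replicate 2 alone and 5 in neither. Itgb1, the integrin β chain shared by the collagen-binding integrins, had 108 and 24.99 TPM. Ddr1, a receptor kinase for collagen, had 3009 and 44 counts, or 116 and 0.545 TPM, and Lair1, an inhibitory receptor of leukocytes that binds collagen, had 1980 and 0 counts (at least 810-fold higher in replicate 1). The α chain Itga1 had 0 and 581 counts, at least 158-fold higher in replicate 2. Of the other α chains listed, Itga2 and Itga10 had 0 counts in both libraries and Itga11 had 0 and 1. Replicate 1 thus held Itgb1 without a count of any listed α chain. The receptor sum of replicate 1 thus rested on Itgb1, Ddr1 and Lair1. Among the 4 members averaging at least 100 counts, 3 were at least 4-fold higher in replicate 1 (all genes, 21.5%) and 1 in replicate 2 (29.4%).

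Collagen-degrading enzymes and their inhibitors summed to 165 and 164 TPM. Of 13, 3 were read in both libraries, 1 in replicate 1 alone, 4 in replicate 2 alone and 5 in neither. Behind this level sum stood different genes. Mmp9, a gelatinase, had 5841 and 7 counts, and Mmp2, the other gelatinase, had 95 and 4681. Timp3, a matrix-bound inhibitor, had 37.2 and 64.7 TPM, and Timp2 had 0 and 2538 counts, at least 689-fold higher in replicate 2. Mmp14, the membrane-bound activator of Mmp2, had 1278 and 0 counts, at least 523-fold higher in replicate 1. Among the 5 members averaging at least 100 counts, 2 were at least 4-fold higher in each library, beside 21.5% of all genes in replicate 1 and 29.4% in replicate 2. With so few members, nothing particular to any of these 6 lists is read from the counts. The numbers of members read in 1 library alone also have no background split by library.

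Markers of cells that make collagen were set beside the chains. Mesenchymal markers summed to 1472 and 1013 TPM, with 8 of 11 read in both libraries, among them Dpt and Lum with 1 count each in replicate 1. Twist1 and Prrx1 had 0 in both and Pdgfra had 1 and 0 counts, while Pdgfrb had 4034 and 2588. The sum was led by Sparc (959 and 573 TPM), Dcn (232 and 205 TPM) and Thy1 (160 and 49.2 TPM), a gene that thymocytes also express. Mfap5 (75.7 and 86.0 TPM), Fbn1 (8.20 and 22.4 TPM) and Dpt (0.0321 and 56.9 TPM) were higher in replicate 2. Tendon markers were at or under 1 count in all 4 cases, with Scx and Tnmd at 0. Of 7 bone markers, Spp1, which macrophages also make, had 0 and 1499 counts and Runx2, Sp7 and Bglap had 0 (list sum 0 and 49.5 TPM). Schwann cell markers summed to 19.9 and 79.7 TPM, with Sox10 at 0. Fat markers summed to 485 and 216 TPM, with Adipoq at 0 and 2 counts, and mesothelial markers to 0.0856 and 0.0214 TPM. Macrophage markers summed to 456 and 741 TPM, with 4 of 5 read in both libraries, among them Csf1r with 1051 and 1 counts. The mesenchymal markers thus had no common direction between the libraries, and the part of these cells in the collagen values was not tested.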

How the data were processed

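Per the file headers, the deposited gene and transcript tables hold lengths, an expected count (the authors' estimated count of reads, not normalized), TPM, and the percent of a gene's TPM held by each transcript. The column names are those the RSEM program writes. The assembly was mm10 per the labels and the annotation M4 per the deposited notes. Not given in the sources used here were the aligner, the counting program and the use of strand. Gene lengths are means weighted by transcript.

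Gene IDs were matched to GENCODE M21 (GRCm38), 42462 of 43346. The deposited TPM values were rescaled to 1000000 over mouse genes. Levels are mean ± SD of 2 samples, ratios are log2 with a pseudocount of 1 TPM, and folds use counts as a share of mouse counts, with 3 counts as the floor or an exact 95% interval. Where reads fit several similar genes, the authors' estimate apportioned them. The labels call the samples biological replicates, and no p-value is given.

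Named were chains at 10 or more counts in either library, transcripts of chains with a mean TPM of 20 or more, and from each list the 4 members of highest mean TPM and up to 3 at 100 or more counts in 1 library and under 1 in the other. Other genes named, and transcripts of other chains, were chosen after their values were seen, as were the near-complete transcripts. Members and lists were chosen with earlier results of these data known. The 4-fold call was tested on simulated counts that carried counting error only, and the other steps were not tested in this way. Alternatives covered posterior mean estimates, spike-ins, mitochondrial genes, pseudocounts, count minimums, fold thresholds, thinning, transcript choice, edgeR (4.0.16) TMM factors, DESeq2 (1.42.0) size factors (both on rounded counts, R 4.3.3) and each library alone. Python 3.11.15, numpy 2.4.6, pandas 2.3.3, scipy 1.17.1 and matplotlib 3.10.9 were used.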

Additional observations from a re-analysis of the deposited data

How the results depend on the processing

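No paired analysis was possible because there is only 1 group. Of 65 alternatives for sums, counts and ratios over the chains, 58 stayed within the spread between replicates or, for counts, within 1.5 times, and 7 moved. The alternatives with 1 library at a time were counted among those that stayed. They could not move, because each of 2 values always lies within the SD of their mean. With near-complete coding transcripts alone, an alternative chosen after seeing the data, the summed TPM fell to 436 ± 61.3 (SD, n = 2) for all chains, 308 ± 50.3 for fibrillar chains and 7.17 ± 6.63 for other chains, and the mean of Col3a1 to 139 TPM, by construction, since short models were left out. The number of chains that differed at least 4-fold was 4 with a pseudocount of 10 TPM, and 4 of 10 at a mean of 1000 or more counts, where fewer chains were counted. The median log2 ratio was -0.52 with a pseudocount of 10 TPM. By highest count, 7 of 8 chains had a near-complete main transcript, against 4 by TPM. Of 110 alternatives for single chains, 2 moved, Col3a1 above and Col6a3, at 0.368 TPM with posterior mean estimates. That number does not show that levels were stable. For a chain near 0 in 1 library the spread exceeds the mean, so even a fall to 0 counted as staying. With near-complete coding transcripts alone, the mean of Col27a1 fell from 3.89 to 0 TPM and that of Col16a1 from 26.2 to 2.10 TPM. Both counted as staying. The type 6 sum, at 61.2 ± 67.7 TPM, had the same limit. The 110 also include those with 1 library at a time, which could not move. The median log2 ratio and the mean log2 ratio of each trimer pair kept their sign under the alternatives tried for them, which did not include each library alone. By library, the TPM ratio of Col1a1 to Col1a2 lay on either side of 1 (1.06 and 0.726). That of Col5a1 to Col5a2 did so too (1.93 and 0.0171). Within replicate 1, Col5a1 lay above Col5a2 by gene TPM (49.1 and 25.4). By near-complete coding transcripts Col5a1 lay below, at 6.81 against 25.3 TPM, so that direction reversed. The sum of the other chains in replicate 1 also fell below that of type 6 with those transcripts. With 1 library at a time the sums ranged from 654.8 to 722.4 TPM over all chains, 480 to 544 fibrillar, 36.6 to 95.2 basement membrane, 13.3 to 109 type 6 and 32.4 to 66.8 other. Depth limits the 22 chains under 10 counts in both libraries, and the number of libraries, 2, limits every spread given.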
